A study of Mus musculus with 8 samples.

Results

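The ILC2 side of a co-culture experiment was examined here: 4 of the 8 RNA sequencing libraries of the series, 2 of lung group 2 innate lymphoid cells (ILC2s) cultured with CD8 T cells and 2 of lung ILC2s cultured alone. The members are those 4 libraries and all 18389 genes of their count table, defined by the libraries' labels. The comparison was chosen with earlier results of these data known. All were primary cells of wild-type mice. The ILC2s came from lung and their partner CD8 T cells from spleen. Co-cultured cells spent 3 days together at a stated ratio of 5:1, and the alone group is labelled untreated. Cells were then isolated by flow cytometry, but the sort gates, the time the alone cells spent in culture, the number of animals and any antigen are not given in the labels. No label ties the replicates to separate cultures or animals. A p-value here measures only the spread between these libraries, which may be technical.

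ILC2s are tissue-resident lymphocytes that carry no rearranged antigen receptor. They depend on the transcription factors GATA3 and RORα and on the repressor ID2, and they respond to epithelial alarmins through ST2, the interleukin-33 receptor encoded by Il1rl1. In the lung they are known as a source of interleukin-5 and interleukin-13, the cytokines that drive eosinophilia and mucus production. The series asks whether ILC2s take up antigen and present it to CD8 T cells, and the comparison here asked which ILC2 transcripts differ after contact with those T cells.

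The libraries held 60738117 and 55417551 reads for ILC2s labelled alone, and 48471801 and 48072595 reads for those labelled co-cultured. All 4 defining markers, with Il5 described further on, were present in every library. Gata3 stood at 429 and 399 CPM (reads per 1000000 reads of the library) in the alone libraries and at 1317 and 1237 CPM in the co-cultured ones. Il1rl1 stood at 738 and 856 CPM alone and at 2399 and 2084 CPM co-cultured. Id2, which blocks the E proteins that drive T and B cell fates, stood at 575 and 610.3 CPM alone and at 1784 and 1973 CPM co-cultured. All 3 were higher in both co-cultured libraries than in both alone libraries.

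The alone libraries went against their label in another respect. They held high levels of T cell, macrophage and stromal transcripts that the co-cultured libraries held at much lower levels. Cd8a, the α chain of the CD8 coreceptor, stood at 249 and 258 CPM in ILC2s labelled alone and at 6.09 and 6.76 CPM in those labelled co-cultured, although the partner cells of the co-culture were the CD8 T cells. Spp1, the secreted protein osteopontin made by macrophages among others, stood at 12104 and 12389 CPM alone and at 8.21 and 7.86 CPM co-cultured. Col1a1, a chain of type I collagen and a product of fibroblasts, stood at 1068 and 1226 CPM alone and at 0.64 and 0.312 CPM co-cultured. Groups are therefore named by their labels, and every direction below is that of the labels. Both alone libraries showed the pattern. The files do not settle whether the labels of the groups were exchanged or RNA of other cells was carried over, and an exchange would turn every direction.

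**Figure D1:**
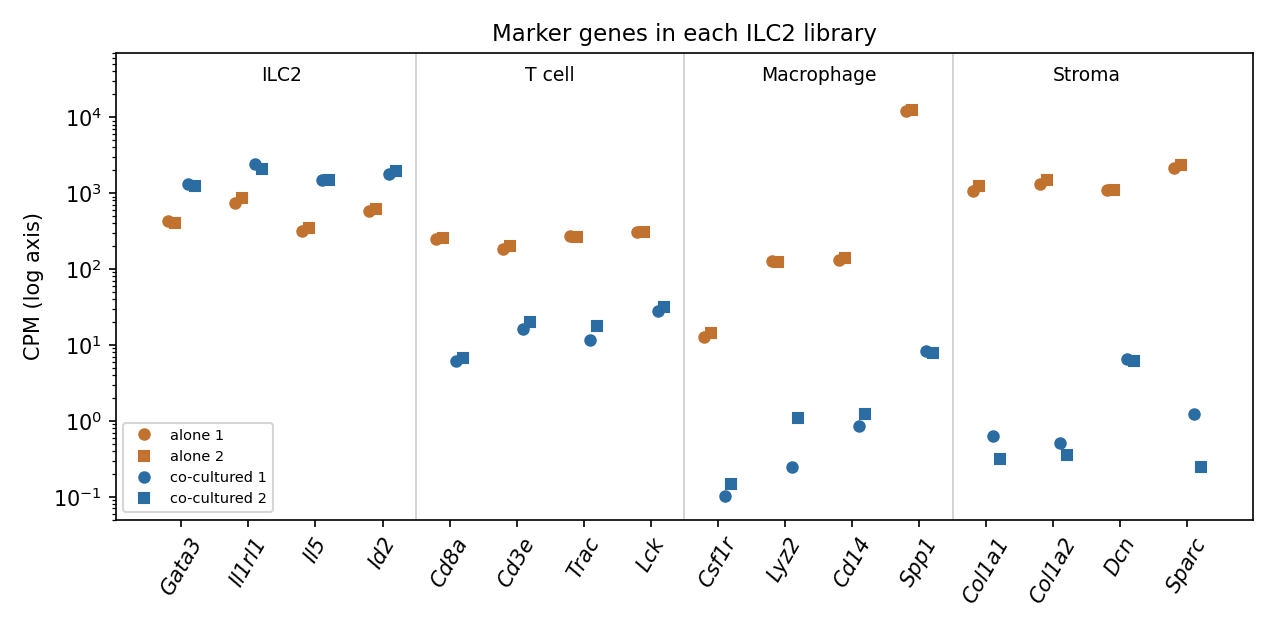
CPM (log axis) of marker genes in each of the 4 ILC2 libraries, with alone libraries in orange and co-cultured libraries in blue, and circles and squares for replicates 1 and 2. ILC2 markers were higher in the co-cultured libraries, whereas the T cell, macrophage and stromal markers shown were all lower there; Spp1 fell from 12104 and 12389 CPM to 8.21 and 7.86 CPM.

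Most tested genes differed between the groups. In edgeR's quasi-likelihood test with TMM scaling and Benjamini-Hochberg adjusted p below 0.05, 5324 of 16739 genes were higher in co-cultured ILC2s (31.8%) and 5766 were lower (34.4%), 66.3% in all. At least 2-fold changes were called for 2948 higher (17.6%) and 3805 lower (22.7%) genes. A count of called genes in any list below has to be read against these shares.

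The sign of a modest change depended on what the libraries were scaled to. A second scaling used the median ratio of genes that mark ILC2s, of which 9 of 10 were in the table: Gata3, Il1rl1, Rora, Il17rb, Nmur1, Il9r, Ccr8, Hs3st1 and Rxrg. Under it, 850 genes were higher (5.08%) and 12136 were lower (72.5%). Genes called higher thus made up 48.0% of all calls under TMM and 6.55% under the reference scaling. The median log2 change over all tested genes was -0.01 under TMM and -1.26 under the reference scaling. In bulk RNA, fewer cells of a type and less RNA per cell cannot be told apart. Reference-scaled values say how a gene moved relative to these ILC2 genes in the library, not per cell.

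Together the scalings sorted the genes into classes. The 850 genes that were higher under both (5.08% of those tested) are called above the ILC2 reference. Another 2557 (15.3%) were higher under TMM and not called under the reference scaling, and are called with it. A further 6370 (38.1%) were not lower under TMM but lower relative to the reference, and lie between. The 5766 genes lower under both (34.4%) went against it. All genes lower under TMM were lower under the reference scaling too, so this class repeats the TMM call. Likewise, the genes above are all those higher under the reference scaling. The last 1196 (7.14%) fell in none of these classes.

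The reference genes did not move as a block. Of the 9, 6 were called higher under TMM and 2 lower, and their log2 changes ran from -0.91 to 2.21. Il9r, the interleukin-9 receptor, rose from 15.6 and 13.6 CPM to 57.0 and 59.5 CPM. Hs3st1, a heparan sulfate sulfotransferase, fell from 124 and 147 CPM to 76.7 and 85.6 CPM. Il17rb, the interleukin-25 receptor, stood at 116 and 98.8 CPM alone and at 104 and 101 CPM co-cultured, with overlapping groups and no call. The reference scaling thus follows the middle of genes that did not move alike.

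Most ILC2 identity genes were higher in the co-cultured libraries. Of 39 such genes in the table, 30 were higher, 6 were lower and 3 did not pass the test, with a median log2 change of 1.35 under TMM and 0.10 under the reference scaling. Under the reference scaling 15 were higher and 13 lower, and under scaling to the 4 markers Gata3, Il1rl1, Il5 and Id2 the counts were 0 and 25. Their summed level was 8221 and 8739 CPM alone and 16579 and 16310.0 CPM co-cultured. Of the 39, 15 lay above the reference, 11 with it, 7 between and 6 against it. These genes include the reference genes, which set that scaling. The genes of other lineages described below fell in the same libraries, and their part in this rise was not tested.

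Among the identity genes called higher, Gata3 rose by 1.84 on the log2 scale (SE 0.118, adjusted p = 1.03e-07 in edgeR's quasi-likelihood test) and by 0.59 relative to the reference. Icos, a costimulatory receptor that sustains ILC2s, rose from 244 and 251 CPM to 852 and 871 CPM. Ets1, a transcription factor needed for ILC2 development, rose from 317 and 328 CPM to 1174 and 1047 CPM. Pparg, a nuclear receptor that controls lipid uptake in ILC2s, rose from 102 and 97.2 CPM to 361 and 319.7 CPM. The log2 changes of Icos, Ets1 and Pparg were 2.01, 2.00 and 1.99, and each of them was also called higher relative to the reference, by 0.77, 0.75 and 0.74.

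The 6 identity genes called lower were Sox4, Tcf7, Rxrg, Ly6a, Hs3st1 and Lmo4. Lmo4, at a log2 change of -0.39, lost its call under RLE scaling (adjusted p = 0.0588 in edgeR's quasi-likelihood test) and without the second alone library (log2 change -0.14, adjusted p = 0.493 in the same edgeR test). Sox4, a transcription factor of lymphoid progenitors, fell from 69.9 and 59.3 CPM to 3.78 and 3.04 CPM. Tcf7, which encodes TCF-1 and serves ILC precursors as well as T cells, fell from 60.8 and 55.6 CPM to 13.3 and 10.9 CPM. Ly6a, the surface antigen Sca-1 that several cell types share, fell from 1747 and 2100.1 CPM to 922 and 1136 CPM. The CD8 T cell libraries labelled alone held Tcf7 at 224 CPM and Ly6a at 732 CPM on average. The groups did not overlap for Sox4, Tcf7 or Ly6a.

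Cytokine and effector genes moved in both directions. Of 22 cytokine and effector genes in the table, 12 were higher and 10 lower, with a median log2 change of 0.38 under TMM and -0.86 relative to the reference. Il5 rose from 312 and 343 CPM to 1495 and 1492 CPM, a log2 change of 2.40 (SE 0.118, adjusted p = 1.26e-08 in edgeR's quasi-likelihood test) and 1.16 relative to the reference. Il13 was sparse, with 130 and 97 reads alone and 418 and 585 reads co-cultured, which is 2.14 and 1.75 CPM against 8.62 and 12.2 CPM. Its log2 change was 2.62 (SE 0.217), and its groups did not overlap. The 2 co-cultured libraries also held more Il9, at 19.9 and 30.2 CPM against 7.90 and 7.76 CPM.

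Promoter sequences of Il5, Il13 and Il1rl1 are shown because GATA3 is the defining factor of these cells. The 250 bases before each start site are printed from RefSeq (GRCm38.p6), 5′ to 3′ on the gene's own strand, with capitals for each match on either strand to the WGATAR consensus (A or T, then GATA, then A or G), the core letters bound by GATA factors. Il5 lies at chr11:53720544-53720793 (plus strand), Il13 at chr11:53634703-53634952 (minus strand) and the upstream window of Il1rl1, for 1 of its 2 annotated starts, at chr1:40429320-40429569 (plus strand).
Il5: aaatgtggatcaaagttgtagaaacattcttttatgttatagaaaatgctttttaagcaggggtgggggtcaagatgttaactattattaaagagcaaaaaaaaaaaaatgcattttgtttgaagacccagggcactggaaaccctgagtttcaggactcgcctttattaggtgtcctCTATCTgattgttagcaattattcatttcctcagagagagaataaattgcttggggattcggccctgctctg
Il13: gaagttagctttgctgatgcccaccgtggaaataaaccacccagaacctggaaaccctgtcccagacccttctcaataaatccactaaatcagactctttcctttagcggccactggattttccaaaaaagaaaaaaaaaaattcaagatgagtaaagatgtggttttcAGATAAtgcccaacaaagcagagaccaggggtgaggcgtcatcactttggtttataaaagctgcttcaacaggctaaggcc
Il1rl1: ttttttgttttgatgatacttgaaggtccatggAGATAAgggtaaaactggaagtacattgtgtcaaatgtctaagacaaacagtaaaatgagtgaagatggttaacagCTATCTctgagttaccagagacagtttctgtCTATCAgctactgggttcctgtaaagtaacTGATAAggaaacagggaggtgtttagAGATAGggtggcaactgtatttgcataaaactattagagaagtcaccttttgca
The Il5 window held 1 match, on the opposite strand at -72 to -67 from the start, the Il13 window 1, at -81 to -76, and the Il1rl1 window 5. The Il1rl1 start was chosen by its number of matches, so 5 is the highest count over its 2 starts. At least 1 such match stood in 26.5% of all 32851 promoters of the reference table. Among promoters of the genes in each class, the share was 19.2% above the ILC2 reference, 18.1% with it, 18.1% between and 17.5% against it. A gene with several starts counts once per start, and 12187 of the 18389 genes had a promoter in the reference table. Matches describe letters in the window, and binding was not measured.

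Il10 and Bmp7 had the largest rises among the cytokine and effector genes. Il10, an anti-inflammatory cytokine, rose from 3.34 and 4.04 CPM to 22.9 and 26.1 CPM, a log2 change of 2.95. Bmp7, a secreted bone morphogenetic protein, rose from 16.4 and 13.7 CPM to 91.2 and 87.2 CPM, a log2 change of 2.78. Relative to the reference they rose by 1.70 and 1.53. Areg, the epidermal growth factor receptor ligand amphiregulin that supports epithelial repair, rose from 96.9 and 94.0 CPM to 213 and 239.9 CPM. Areg moved with the reference and not above it, with a reference-scaled log2 change of 0.21.

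Il6, a pyrogenic cytokine of many cell types, fell from 401 and 457 CPM to 3.18 and 3.08 CPM (log2 change -6.88, SE 0.164, adjusted p = 6.21e-11 in edgeR's quasi-likelihood test). Csf2, which encodes GM-CSF, fell from 46.4 and 35.7 CPM to 1.61 and 1.83 CPM. The chemokine genes Ccl22 and Cxcl2 had log2 changes of -6.35 and -5.78. Il6 is also made by macrophages and fibroblasts, and most of the markers of those cells in the table fell in the same libraries. Their part in the fall of Il6 was not tested. Penk, the precursor of enkephalin peptides, fell from 219 and 182 CPM to 54.3 and 60.3 CPM.

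Receptors through which ILC2s read alarmins and growth cytokines were mostly higher under TMM. Of 29 in the table, 23 were higher, 4 lower and 2 did not pass. The median log2 change over them was 0.97 under TMM and -0.27 relative to the reference. Under the reference scaling 10 were higher and 14 lower, and under scaling to the 4 markers 0 and 20. Il1r2, the decoy receptor for interleukin-1, rose from 154 and 146 CPM to 471 and 502 CPM. Il18rap, the accessory chain of the interleukin-18 receptor, rose from 71.8 and 69.1 CPM to 230.3 and 212 CPM. Tnfrsf18, which encodes the costimulatory receptor GITR, rose from 501 and 445 CPM to 1304 and 1488 CPM. Il1r1, the signalling receptor for interleukin-1 and widely expressed on stromal cells, went the other way, from 38.5 and 43.0 CPM to 0.371 and 0.582 CPM. The other receptors that fell under TMM were Il1rap, Il21r and Csf2rb.

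Under TMM, receptors for neuropeptides, hormones and lipid mediators rose in 15 of 22 cases, fell in 3 and did not pass in 4. Their median log2 change was 0.77 under TMM and -0.48 relative to the reference. The reference scaling called 6 of them higher and 12 lower. Gipr, the receptor for the gut hormone GIP, had the largest rise of any named gene with a mean of at least 16 CPM over the 4 libraries (chr7:19156063-19170248, GRCm38.p6). It held 37 and 20 reads alone and 1582 and 1642 reads co-cultured, or 0.609 and 0.361 CPM against 32.6 and 34.2 CPM. Its log2 change was 6.30 (SE 0.221, adjusted p = 7.36e-10 in edgeR's quasi-likelihood test) and 5.05 relative to the reference. CD8 T cells held Gipr at 7.02 CPM alone and 18.6 CPM co-cultured, so the co-cultured ILC2 libraries held 180% of the co-cultured CD8 level.

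Nr3c1, the glucocorticoid receptor, rose from 208 and 182 CPM to 884 and 803 CPM. Vipr2, a receptor for vasoactive intestinal peptide that induces interleukin-5 release, rose from 17.6 and 19.5 CPM to 66.1 and 65.0 CPM. Ramp1 and Ramp3, which pair with the calcitonin receptor-like receptor, rose by 2.16 and 1.86 on the log2 scale. Nmur1, the neuromedin U receptor and one of the reference genes, rose as well: 44.5 and 50.3 CPM became 93.4 and 97.1 CPM. Its reference-scaled log2 change was -0.02. The receptors that fell under TMM were Ptger1, P2ry14 and Htr1b, each below 11 CPM in the co-cultured libraries.

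The largest rises outside the fixed lists named genes of varied function. Igsf9, an immunoglobulin superfamily adhesion protein, rose from 5.17 and 4.76 CPM to 111 and 112 CPM, with CD8 T cells at 0.396 CPM alone. Smtnl2 rose from 1.91 and 3.16 CPM to 43.2 and 41.6 CPM, and here CD8 T cells held 50.2 CPM alone and 54.0 CPM co-cultured. Dysf, the membrane repair protein dysferlin, rose from 4.38 and 3.32 CPM to 50.6 and 51.8 CPM. Their log2 changes were 4.70, 4.28 and 3.95. The groups were far apart in all 3, and the replicates within a group differed by less than the groups did.

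Ero1l, the oxidase that forms disulfide bonds in secreted proteins in the endoplasmic reticulum, stood among the most abundant of all transcripts by reads. It rose from 1049.7 and 1085 CPM to 12863 and 11137 CPM, a log2 change of 3.71 (SE 0.127, adjusted p = 6.05e-10 in edgeR's quasi-likelihood test) and 2.46 relative to the reference. CD8 T cells held it at 1515 CPM alone and 1119 CPM co-cultured. Txnip, which restrains glucose uptake and binds thioredoxin, rose from 169.9 and 283 CPM to 2325 and 2175 CPM. Selenbp1, Gpld1, Glis1 and Kremen2 were the other genes of this group, with log2 changes of 3.60, 3.58, 3.57 and 3.52. CD8 T cells labelled alone, which were not the partner cells, held Kremen2 at 52.2 CPM and Selenbp1 at 202 CPM. The part of the partner cells in the rise was not tested.

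Homing receptors and integrins were called higher in 16 of 28 cases and lower in 10 under TMM. Under the reference scaling 6 were higher and 16 lower. Their median log2 change was 0.60 under TMM and -0.64 relative to the reference. Ccr2, the receptor for the monocyte chemokine CCL2, rose from 64.2 and 65.4 CPM to 693 and 579 CPM. It stood on the macrophage list too, where it was the only gene called higher. Itga7, a laminin-binding integrin chain, rose from 15.4 and 15.99 CPM to 192 and 188 CPM, and Itga4, the chain of the mucosal and vascular homing integrins, rose from 38.1 and 35.1 CPM to 181 and 159 CPM. Ccr9, a gut homing receptor, fell from 44.4 and 43.7 CPM to 10.98 and 9.40 CPM, while CD8 T cells co-cultured held 301 CPM.

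Inhibitory receptors split. Of 17, 8 were higher, 7 lower and 2 did not pass, and the median log2 change over them was 0.28 under TMM and -0.97 relative to the reference. Ctla4, which competes with CD28 for B7 ligands, rose from 375 and 389 CPM to 1729.7 and 1684 CPM, a log2 change of 2.38 (SE 0.115, adjusted p = 1.1e-08 in edgeR's quasi-likelihood test) and 1.13 relative to the reference. CD8 T cells held Ctla4 at 530.2 CPM alone and 775 CPM co-cultured. The co-cultured ILC2 libraries held 220% of the co-cultured CD8 level. Klrg1, a marker of activated ILC2s that binds cadherins, rose from 92.9 and 107 CPM to 246 and 273 CPM. Cd160, Lag3 and Cd96, which are common on cytotoxic lymphocytes, had log2 changes of -4.59, -2.20 and -2.70.

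**Figure D2:**
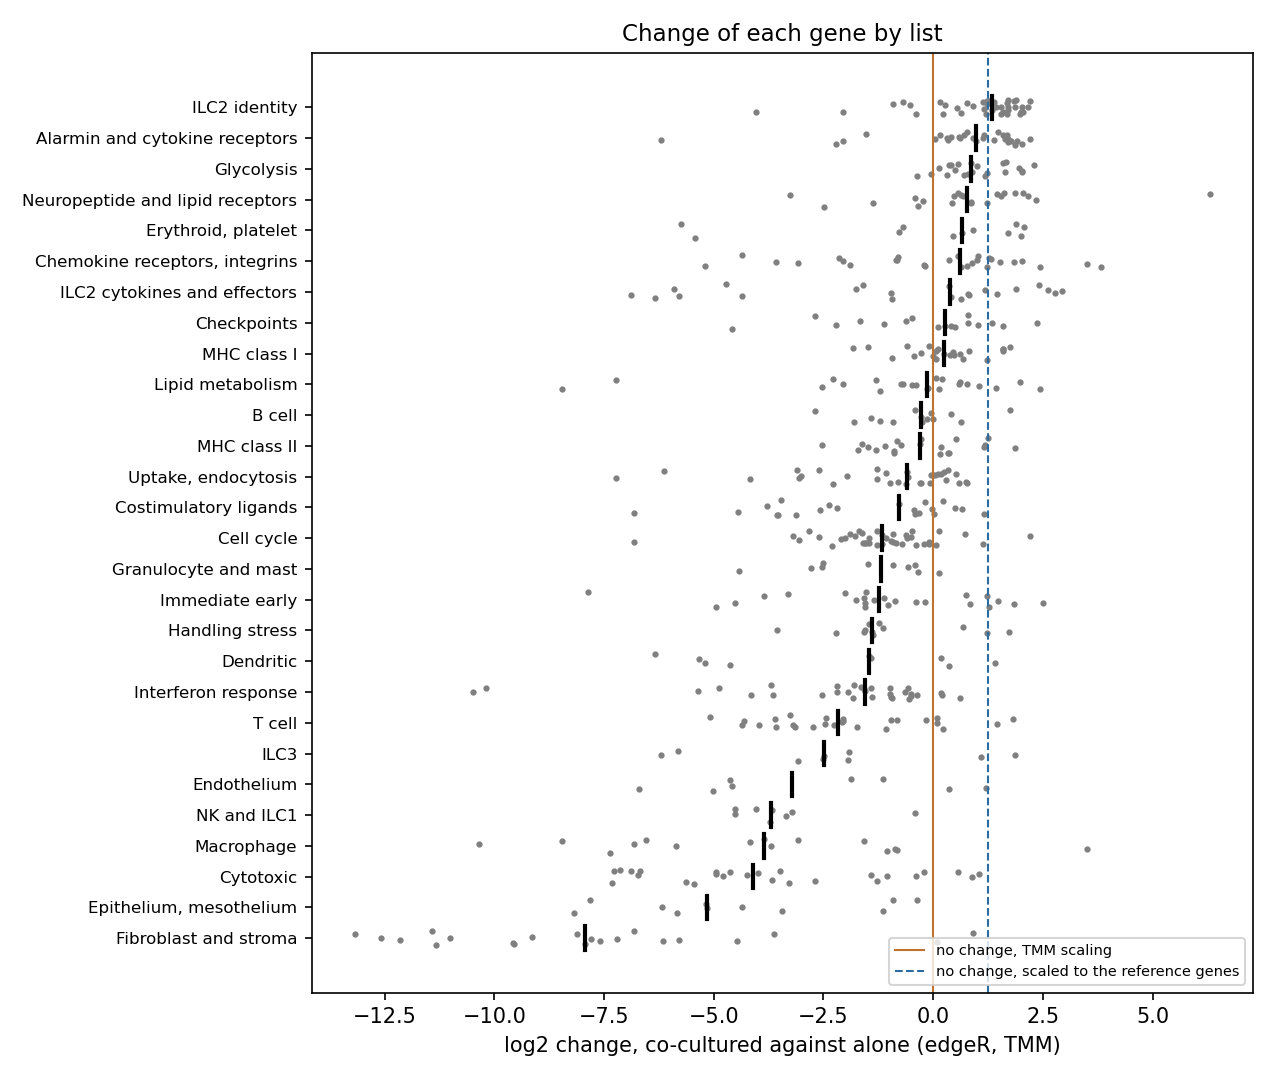
Log2 change of each tested gene (grey points, horizontal axis, edgeR with TMM scaling) by gene list (rows), with the list median as a black bar. The orange line marks no change under TMM and the dashed blue line marks no change under the reference scaling; stroma had the lowest median, -7.92, and ILC2 identity the highest, 1.35.

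T cell transcripts were the first of the other lineages. Of 26 T cell genes, 20 were lower in the co-cultured ILC2 libraries, 2 were higher and 4 did not pass, and the median log2 change over them was -2.16. Their summed level was 3462 and 3307 CPM alone and 868 and 951 CPM co-cultured. Cd3e, a signalling chain of the T cell receptor complex, stood at 185 and 202 CPM alone and at 16.2 and 20.3 CPM co-cultured. Trac, the constant region of the receptor α chain, stood at 270.3 and 262 CPM alone and at 11.6 and 17.6 CPM co-cultured. Lck, the kinase that starts T cell receptor signalling, stood at 308 and 307 CPM alone and at 27.7 and 31.9 CPM co-cultured. The log2 changes were -3.20, -3.98 and -3.15, with adjusted p of 5.04e-09, 4.74e-09 and 2.2e-09 in edgeR's quasi-likelihood test.

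Compared with the CD8 T cell libraries labelled alone, the ILC2 libraries labelled alone held a similar fraction of several T cell genes. That fraction was 31.0% for Cd3e, 32.5% for Trac, 34.0% for Trbc2, 30.6% for Lck and 44.1% for Cd8a. Over the 26 genes its median was 27.9%, from 12.4% to 1281%, the highest being Cd4 (15.8 and 12.6 CPM in ILC2s alone, 1.11 CPM in CD8 T cells alone). In the co-cultured pair the median fraction was 5.05%, and Cd8a stood at 0.675% of the co-cultured CD8 level. The tables were deposited separately and levels across them are a description.

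Not every T cell list gene fell. Zap70, a kinase of antigen receptor signalling, rose from 63.2 and 54.1 CPM to 159.8 and 197 CPM, to 89.2% of the co-cultured CD8 level. Sit1 was the other gene called higher. Cd3g, the γ chain of the receptor complex, fell by 0.96 on the log2 scale to 71.3 and 83.6 CPM, against a log2 change of -3.20 for Cd3e.

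Most cytotoxic genes were lower in the co-cultured libraries as well. Of 26 in the table, 21 were lower, 2 higher (Srgn and Cst7, at -0.20 and -0.68 relative to the reference) and 3 did not pass, and the median log2 change over them was -4.11. Gzmb, the granule protease granzyme B, fell from 3209 and 2858 CPM to 95.2 and 117 CPM, and Prf1, the pore-forming perforin, from 332 and 337 CPM to 29.9 and 29.3 CPM. Ifng, which encodes interferon gamma, held 12320 and 11648 reads alone but 18 and 150 reads co-cultured, so its 2 co-cultured libraries disagreed. Gzmc, another granzyme, fell from 223 and 212 CPM to 1.61 and 1.96 CPM. Granzyme genes are similar in sequence and how shared reads were counted is not given, so single granzyme values are uncertain.

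Cytotoxic genes stood at uneven fractions of their CD8 level. The ILC2 libraries labelled alone held 28.2% of the CD8 alone level for Gzmb, 90.6% for Prf1, 13.3% for Ifng and 360% for Gzmc. Of 8 natural killer and ILC1 genes in the table, all 8 were lower, with a median log2 change of -3.70. Klrc1, which encodes the receptor NKG2A of natural killer and CD8 T cells, fell from 122 and 136 CPM to 1.98 and 2.50 CPM. Of 9 ILC3 genes in the table, 7 fell and 2 rose. Il17a, the signature cytokine of ILC3s and of some T cells, fell from 13.0 and 11.46 CPM to 0.124 and 0.25 CPM, whereas Ltb, a lymphotoxin chain made by many lymphocytes, rose from 49.5 and 51.2 CPM to 146 and 169 CPM.

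Macrophage transcripts were abundant in the alone libraries. Only 15 of 30 macrophage genes were in the table, and a gene with no read in any 1 of the 4 libraries is missing from it. Of the 15, 14 were lower and Ccr2 was higher, with a median log2 change of -3.85 and summed levels of 14967 and 15782 CPM alone and 745 and 644 CPM co-cultured. Spp1 made up most of the alone sums, at 12104 and 12389 CPM. Ccr2 made up most of the co-cultured sums, at 693 and 579 CPM. Lyz2, the lysozyme of myeloid cells, stood at 128 and 125 CPM alone and at 0.248 and 1.08 CPM co-cultured. Cd14, the lipopolysaccharide coreceptor of monocytes and macrophages, stood at 132 and 139.7 CPM alone and at 0.846 and 1.23 CPM co-cultured. Csf1r, the growth factor receptor that sustains macrophages, had 771 and 806 reads alone and 5 and 7 reads co-cultured.

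A few genes held most of the macrophage list's reads. Chil3, a chitinase-like protein of alternatively activated macrophages, stood at 2218 and 2719.5 CPM alone. In the co-cultured libraries it held 14 and 585 reads, so replicate 2 carried nearly all of it. The complement genes C1qa, C1qb and C1qc and the scavenger receptor genes Marco, Msr1 and Mrc1 were among the 15 genes not in the table, and no level can be given for them. The CD8 libraries labelled alone held Spp1 at 76.0 CPM and Lyz2 at 2.96 CPM, far below the ILC2 libraries labelled alone.

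Fibroblast and stromal transcripts had the lowest median of the lists. Of 34 stromal genes, 13 were not in the table, among them Col3a1, Pdgfra and Postn. Of the 21 in the table, 19 were lower, Lum was higher and Vim did not pass, and the median log2 change over them was -7.92. Their summed level was 13793 and 14583 CPM alone and 1024 and 1027 CPM co-cultured. Col1a2, another chain of type I collagen, had 80165 and 82020 reads alone and 25 and 17 reads co-cultured. Dcn, the collagen-binding proteoglycan decorin, fell from 1092 and 1087 CPM to 6.56 and 6.09 CPM. Lox, which cross-links collagen, had 61377 and 57799 reads alone and 6 and 3 reads co-cultured. Of the 12 largest falls, Serpinh1, Mmp3, Sparc, Lox, Col1a1 and Col1a2 are on the stromal list, and they were joined by Cxcl5, Sod3, Tfpi2, Cxcl10, Rarres2 and Clu.

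Lum, the proteoglycan lumican, was the exception among matrix genes. It rose from 61.0 and 71.7 CPM to 105 and 109.9 CPM, a log2 change of 0.91, while it fell by 0.33 relative to the reference. Its direction therefore depended on the scaling. CD8 T cells held it at 2.16 CPM alone and 0.203 CPM co-cultured.

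Many marker genes of further cell types were lower in the co-cultured libraries as well. Of 11 epithelial and mesothelial genes tested, 10 fell and 1 did not pass, and the median log2 change over them was -5.15. Cdh1, the epithelial adhesion protein E-cadherin, fell from 72.0 and 78.0 CPM to 1.73 and 1.91 CPM, and Krt8, an epithelial keratin, from 87.8 and 92.4 CPM to 0.433 and 0.25 CPM. Sftpc, the surfactant protein of alveolar type 2 cells, had 969 and 688 reads alone and 40 and 17 reads co-cultured. Of 8 endothelial genes, 5 fell, 2 rose and 1 did not pass. Of 9 dendritic cell genes, 5 fell, 1 rose and 3 did not pass.

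Of 14 B cell genes, 5 were lower, 2 higher and 7 did not pass the test under TMM, and 34.4% of all tested genes were lower. The reference scaling called 13 of the 14 lower and 0 higher. The median log2 change over the B cell genes was -0.27 under TMM and -1.51 relative to the reference. Ighm, the immunoglobulin μ constant region, fell from 1740.3 and 1659 CPM to 569 and 518 CPM, and Cd79a, a chain of the B cell receptor, stood at 23.5 and 21.3 CPM alone and at 15.6 and 16.1 CPM co-cultured. Of 10 granulocyte and mast cell genes, 8 fell and 2 did not pass, with Cpa3, a mast cell protease, going from 141 and 114 CPM to 19.6 and 18.6 CPM. Of 11 red cell and platelet genes, 5 rose, 2 fell and 4 did not pass, and the median log2 change over them was 0.65 under TMM and -0.58 relative to the reference, and the haemoglobin gene Hbb-bs stood at 1.43 and 1.52 CPM alone and at 4.83 and 5.78 CPM co-cultured.

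Levels in CD8 T cells were then used to sort the strong falls as a description. A set of 327 genes was called lower by at least 16-fold and had at least 16 CPM on average in the alone libraries. For 27 of them (8.26%) the CD8 libraries labelled alone held a level at least as high, among them the T cell and cytotoxic genes Cd8a, Gzmb, Nkg7, Ccl3 and Ifng. For 241 (73.7%) the CD8 level was less than 1/16 of the ILC2 level or the gene was not in the CD8 table, as for Spp1, Chil3, Sparc and Dcn. The other 59 (18.0%) lay between, with Gzmc and Egr2 as examples. Of all 8309 tested genes with at least 16 CPM in the alone libraries, 48.4% had a CD8 level at least as high and 5.66% had one below 1/16 or were not in the CD8 table. These shares describe levels, were not tested, and 1/16 of a high ILC2 level can still be a sizeable CD8 level, as for Spp1 at 76.0 CPM.

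**Figure D3:**
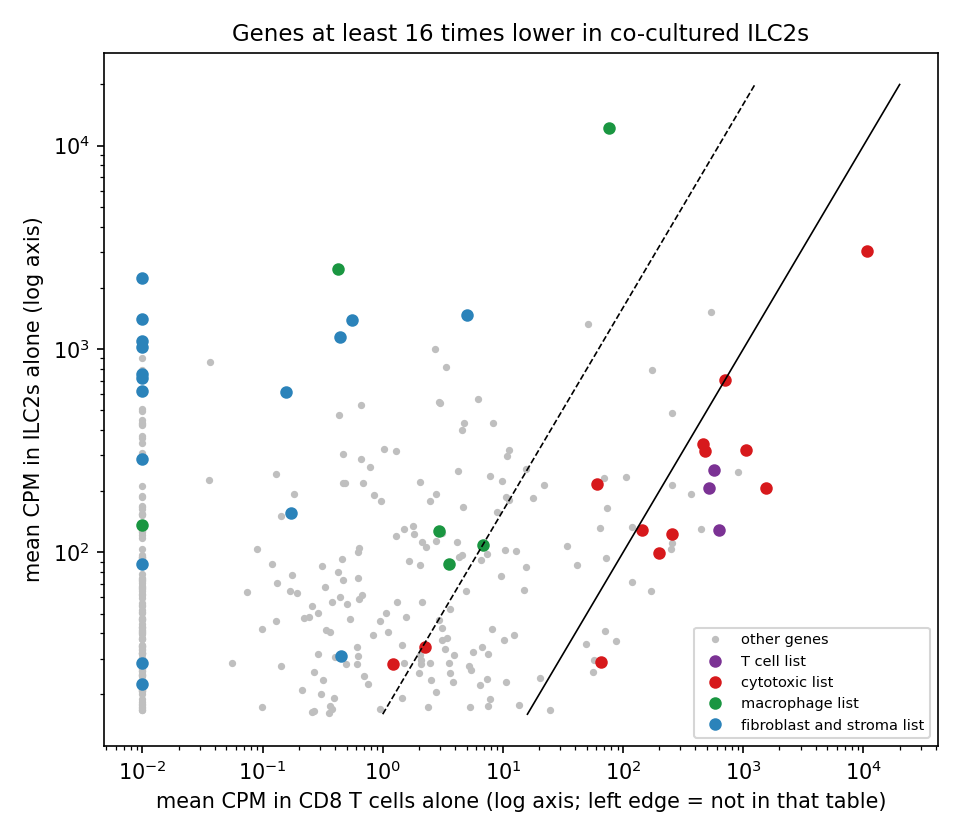
Mean CPM in ILC2s labelled alone (vertical, log axis) against mean CPM in CD8 T cells labelled alone (horizontal, log axis) for the 327 genes at least 16-fold lower in co-cultured ILC2s; genes not in the CD8 table stand at the left edge. The solid line marks equal levels and the dashed line a CD8 level of 1/16; the T cell genes (purple) and most cytotoxic genes (red) lie to the right of the dashed line, and the stromal genes (blue) and most macrophage genes (green) to its left.

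Most interferon response genes were lower in the co-cultured ILC2 libraries. Of 31 in the table, 28 were lower, 2 did not pass and Irf1 was higher (log2 change 0.61, but -0.64 relative to the reference), with a median log2 change of -1.55. Cxcl9 and Cxcl10, chemokines that attract CXCR3-bearing T cells, had the lowest log2 changes of the list, -10.19 and -10.49. Cxcl9 went from 528 and 491 CPM to 0.351 and 0.395 CPM, and Cxcl10 from 545 and 536 CPM to 0.309 and 0.333 CPM, which is 15 and 16 reads. Ifit1, an antiviral protein that binds foreign RNA, fell from 103 and 86.5 CPM to 4.39 and 4.87 CPM, and Iigp1, an immunity-related GTPase, from 1861 and 1852 CPM to 133 and 121 CPM. In the same libraries Ifng fell and the macrophage and stromal genes fell, and their part in this result was not tested.

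For these genes too the 250 bases before the start are printed from RefSeq (GRCm38.p6), because interferon-activated factors bind the interferon-stimulated response element. Its core was searched as TTTC, any 2 bases and TTTC again. Cxcl10 lies at chr5:92348890-92349139 (minus strand) and Ifit1 at chr19:34640639-34640888 (plus strand), and capitals mark matches on either strand to the core of that element.
Cxcl10: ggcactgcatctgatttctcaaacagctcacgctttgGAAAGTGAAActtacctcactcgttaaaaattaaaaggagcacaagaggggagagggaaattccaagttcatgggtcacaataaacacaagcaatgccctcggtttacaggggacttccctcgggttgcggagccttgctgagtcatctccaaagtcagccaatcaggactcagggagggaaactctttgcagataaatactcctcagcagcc
Ifit1: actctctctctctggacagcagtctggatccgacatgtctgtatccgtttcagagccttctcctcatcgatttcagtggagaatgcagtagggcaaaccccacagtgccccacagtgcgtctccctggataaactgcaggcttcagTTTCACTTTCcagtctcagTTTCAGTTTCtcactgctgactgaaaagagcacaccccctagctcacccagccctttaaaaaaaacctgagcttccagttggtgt
The Cxcl10 window held 1 match, on the opposite strand at -213 to -204, and the Ifit1 window 2, at -104 to -95 and at -85 to -76. Of all promoters in the table, 2.98% held at least 1 match. Among promoters of the genes in each class, counted per start as before, the share was 2.37% above the ILC2 reference, 1.96% with it, 2.70% between and 3.25% against it.

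MHC class II genes bear on antigen presentation to helper T cells and did not move as a unit. Of 21, 11 were lower, 7 higher and 3 did not pass, and the median log2 change over them was -0.30 under TMM and -1.55 relative to the reference. Cd74, the invariant chain that guards the class II groove, fell from 541 and 529.7 CPM to 137 and 163 CPM. H2-Aa, the α chain of I-A, fell from 66.5 and 72.0 CPM to 25.2 and 30.5 CPM, and Ciita, the master activator of the class II genes, from 19.1 and 12.04 CPM to 4.56 and 6.41 CPM. H2-Ab1, the partner β chain of H2-Aa, rose from 132 and 149 CPM to 254 and 288 CPM. The chains of 1 dimer thus moved in opposite directions, with log2 changes of -1.10 and 1.16, although H2-Ab1 moved with the reference (-0.08). As 14 of 15 macrophage genes fell in the same libraries, the part of other cells in the class II falls was not tested.

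MHC class I genes serve presentation to CD8 T cells. Of 23, 11 were higher, 6 lower and 6 did not pass, and the median log2 change over them was 0.25 under TMM and -0.999 relative to the reference. H2-D1, a classical class I heavy chain, rose from 6749 and 7597 CPM to 18082 and 19330.0 CPM, a log2 change of 1.60, and H2-K1 from 5182 and 5816 CPM to 10802 and 11227 CPM, a log2 change of 1.22. H2-D1 rose by 0.35 relative to the reference, and H2-K1 moved with it. The 2 genes are similar and reads shared between them may be misassigned. Psmb10, an immunoproteasome subunit that shapes class I peptides, fell from 149 and 144 CPM to 30.7 and 41.1 CPM.

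Among genes for costimulation more were lower than higher. Of 21, 11 were lower, 8 did not pass and 2 were higher. Cd80 and Cd86, the B7 ligands of CD28, fell from 8.35 and 10.8 CPM to 0.722 and 0.478 CPM and from 19.2 and 19.8 CPM to 1.79 and 2.04 CPM. Cd40, which receives help from CD40 ligand, fell from 26.0 and 26.1 CPM to 1.77 and 2.12 CPM. Tnfsf11, the cytokine RANKL, rose from 160.3 and 158 CPM to 316 and 297 CPM, and moved with the reference (-0.08). CD8 T cells alone held Cd86 at 0.805 CPM and Cd40 at 0.196 CPM. In the same libraries 14 of 15 macrophage genes and 5 of 9 dendritic cell genes fell. The part of such cells in the falls of Cd80, Cd86 and Cd40 was not tested.

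Among genes for uptake more were lower than higher. Of 32, 17 were lower, 5 higher and 10 did not pass, and the median log2 change over them was -0.59. Cd36, a scavenger receptor for lipids, fell from 146 and 180.3 CPM to 0.144 and 1.75 CPM, and Lrp1, an endocytic receptor of macrophages and fibroblasts, from 177 and 209 CPM to 19.0 and 19.5 CPM. Fcgr3, a low-affinity Fc receptor, fell from 82.3 and 94.0 CPM to 4.06 and 4.37 CPM. Fcgr3 is on the macrophage list as well, and the share of these falls that comes with the macrophage genes was not tested.

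Most cell division genes were lower. Of 40, 31 were lower, 3 higher and 6 did not pass, and the median log2 change over them was -1.17. Tyms, which makes thymidylate for DNA synthesis, fell from 89.3 and 85.7 CPM to 7.80 and 8.74 CPM, and Rrm2, a subunit of ribonucleotide reductase, from 401 and 389.7 CPM to 48.2 and 48.3 CPM. Mki67, the proliferation antigen Ki-67, stood at 49.4 and 39.8 CPM alone and at 41.5 and 39.0 CPM co-cultured, with overlapping groups. Cdkn1b, the cell cycle inhibitor p27, rose from 1.47 and 2.04 CPM to 6.19 and 7.74 CPM. Summed over the list, the level was 6554 and 6163 CPM in ILC2s labelled alone and 3272 and 3332 CPM co-cultured. The CD8 libraries labelled alone held 10738 and 9986.5 CPM. The part of T cells and other cells in the falls was not tested.

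Immediate early genes moved in both directions. Of 24, 15 were lower, 7 higher and 2 did not pass. Egr2, which is induced by antigen receptor signals, fell from 126 and 140.0 CPM to 4.02 and 3.39 CPM, and the nuclear receptor Nr4a2 fell from 114 and 108 CPM to 3.57 and 4.89 CPM. The CD8 libraries labelled alone held Egr2 at 119.7 CPM and Nr4a2 at 257 CPM. Fosl2, an AP-1 subunit, rose from 36.1 and 40.8 CPM to 181 and 193 CPM, and Tnfaip3, the inhibitor of NF-κB signalling A20, from 336 and 302 CPM to 1052 and 925 CPM. Of 12 genes known to move with cell handling, 9 were lower and 3 higher, with summed levels of 2012 and 1878 CPM alone and 1221 and 1155 CPM co-cultured, and the part of handling in these results was not tested.

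Glycolysis genes were mostly higher. Of 22, 19 were higher, 1 lower and 2 did not pass, and the median log2 change over them was 0.87 under TMM and -0.38 relative to the reference. Slc2a3, a glucose transporter, rose from 199 and 234 CPM to 901 and 946 CPM. Gpi1, the isomerase of glucose 6-phosphate, rose from 855 and 878 CPM to 3002 and 3038 CPM, and Aldoa, the aldolase of the pathway, from 3127 and 3143 CPM to 10069.8 and 10765 CPM. These 3 were above the reference, by 1.06, 0.77 and 0.70. Relative to the reference, 7 glycolysis genes were above, 2 with, 12 between and 1 against it.

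Lipid genes moved in both directions, as did all tested genes, of which 31.8% were higher and 34.4% lower. Of 23 lipid genes, 10 were lower, 7 higher and 6 did not pass. Their median log2 change was -0.15 under TMM and -1.40 relative to the reference. Dgat1, which makes triglyceride for storage, rose from 994 and 1030.2 CPM to 4572 and 4789 CPM, a log2 change of 2.42 (SE 0.106, adjusted p = 4.76e-09 in edgeR's quasi-likelihood test) and 1.18 relative to the reference. CD8 T cells held Dgat1 at 86.7 CPM alone and 539 CPM co-cultured. Lpl, the lipase that frees fatty acids from lipoproteins, fell from 258 and 243 CPM to 0.516 and 0.707 CPM, together with Cd36. Scd1, a fatty acid desaturase, fell from 42.0 and 45.0 CPM to 6.93 and 6.03 CPM.

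**Figure D4:**
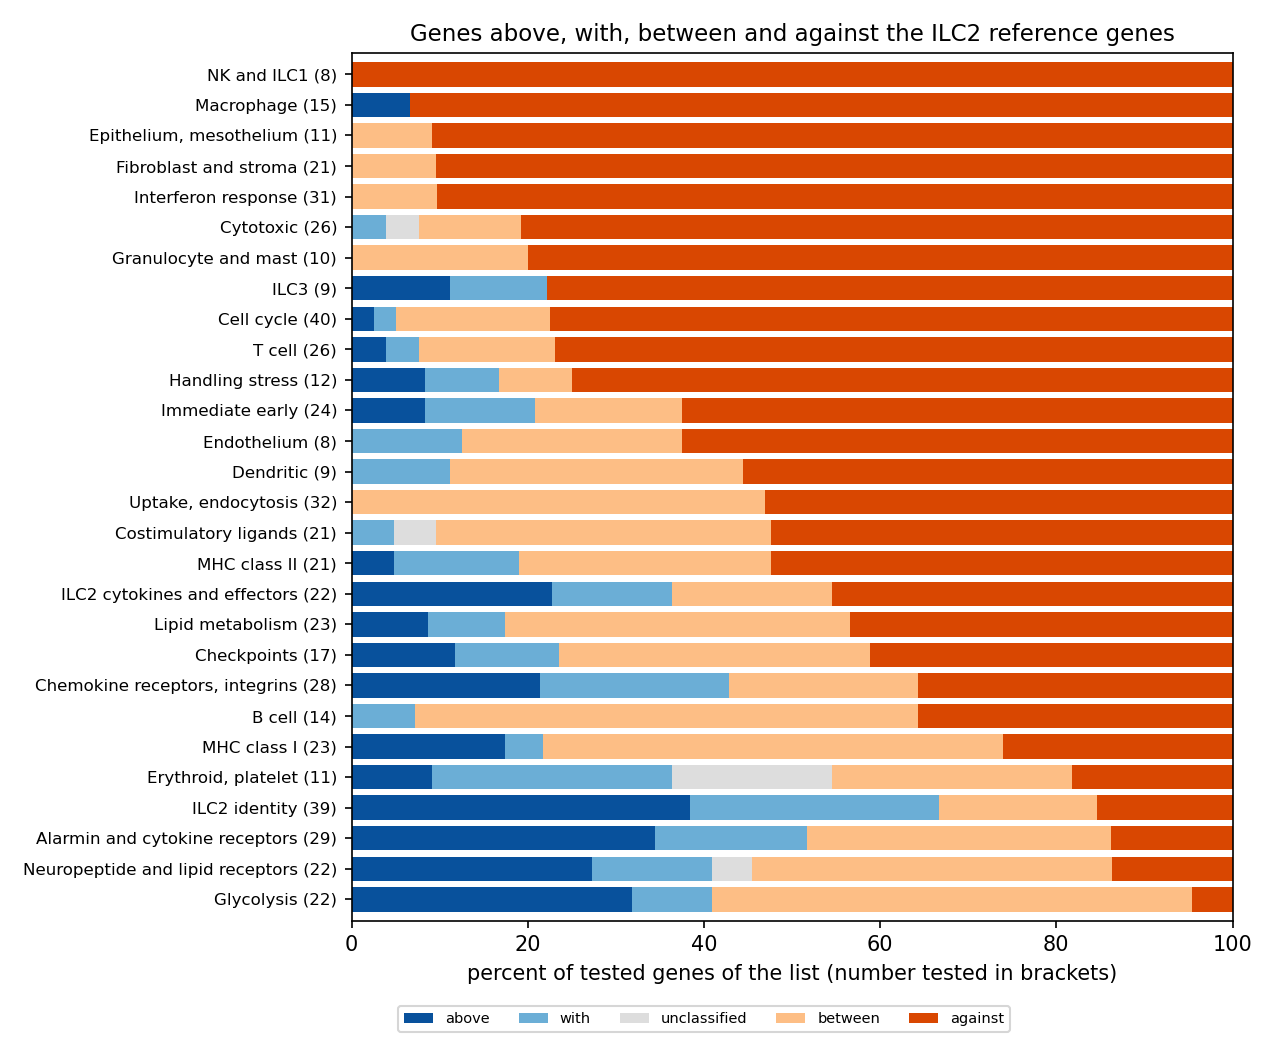
Share of the tested genes of each list (rows, with the number tested in brackets) that lay above, with, between or against the ILC2 reference genes or in no class (stacked bars, percent). Of the 39 ILC2 identity genes 15 were above and 6 against, and of the 21 stromal genes none was above or with and 19 were against.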

How the data were processed

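The 4 ILC2 libraries were compared, co-cultured against alone, and the 4 CD8 T cell libraries gave levels only. Per the labels' protocols, the RNA came from a Trizol extraction and a SMART-Seq v4 low-input kit was used for the libraries. The authors deposited whole-number read counts per gene symbol. Named in the submitters' processing notes are StringTie 2.1.3b, SAMtools 1.9, HISAT2 2.1.0 and Trimmomatic 0.38, with the build mm10. The sources used here do not give each tool's role, the annotation, the strand setting or the treatment of shared reads, so reads of antisense and similar genes cannot be separated. The lowest count in each table was 1, so a gene with no read in even 1 library of a table is not in it. This leaves out genes present in 1 group only.

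Counts were tested with the quasi-likelihood method of edgeR 4.0.16 (R 4.3.3) after filterByExpr and TMM scaling. Calls were made at p under 0.05 after Benjamini-Hochberg adjustment, and the design left 2 residual and 9.23 prior degrees of freedom, so a gene's p-value rests largely on other genes. CPM is the count divided by the library total. SE is the log2 change divided by the square root of F. The second scaling used the median ratio of the ILC2 reference genes to their geometric mean. Replicate counts differed beyond sampling noise (chi-square per gene of 28.7 alone and 21.5 co-cultured). Each library was treated as 1 replicate, although such a spread may be technical. Alternatives were RLE, library totals, a 4-marker scaling, 2 other low-count filters, a replicate block, all 8 libraries, DESeq2 1.42.0, limma-voom (limma 3.58.1) and each library left out. Python 3.11.15, pandas 2.3.3 and matplotlib 3.10.9 made the summaries.

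There were 28 gene lists, and any member may be named. Beyond the lists, the rule named the 12 largest rises and the 12 largest falls among called genes with a mean of at least 16 CPM, and the 6 most abundant genes of each class. The libraries, lists and scalings were chosen with earlier results of these data known. RefSeq GRCm38.p6 gave gene positions for 95.7% of the symbols. Some list members are counted with their lists but not reported here by name.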

Additional observations from a re-analysis of the deposited data

How the results depend on the processing

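Scaling moved the counts over all genes most. Genes higher numbered 5324 under TMM, 850 under the reference scaling and 243 under scaling to Gata3, Il1rl1, Il5 and Id2, and genes lower 5766, 12136 and 14483. The 4-marker scaling left 243 genes above and 1515 with the reference, and a filter of at least 5 CPM left 1369 with it, from fewer genes tested. The shift in median log2 change was -1.91 under the 4-marker scaling and -0.22 with library totals only, where higher genes were 38.3% of calls. Counts of higher genes under RLE, no or stricter low-count filters, all 8 libraries, DESeq2 and limma-voom ran from 4056 to 5517, and of lower genes from 4217 to 6209. Leaving out 1 library each gave 4422 to 5222 higher and 5007 to 5847 lower genes, 586 to 892 above, 2312 to 2815 with, 5973 to 6750 between and 5007 to 5847 against the reference, and, as an alternative chosen after seeing the data, 27 to 30 and 237 to 244 of the strong falls with high and with low or unlisted CD8 levels. A lone library was assumed to vary like the other group.

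With the replicate block, 5294 genes were higher and 5761 lower, and no named gene changed its call. Over genes, the deviations of same-numbered libraries from their group means correlated at 0.042. With 2 libraries per group both numbers give the same value, so it cannot decide whether same-numbered libraries belong together.

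Log2 changes of named genes turned negative under the reference scaling for Ccr8 (-0.0093), Cst7 (-0.68), H2-Ab1 (-0.083), H2-K1 (-0.027), Il17rb (-1.10), Irf1 (-0.64), Lum (-0.33), Mki67 (-1.18), Nmur1 (-0.022), Srgn (-0.20), Tnfsf11 (-0.084) and Vim (-1.16). Under the 4-marker scaling they did so for Areg (-0.44), Ccr8 (-0.67), Cst7 (-1.34), Gata3 (-0.066), H2-Ab1 (-0.74), H2-D1 (-0.31), H2-K1 (-0.69), Id2 (-0.024), Il17rb (-1.76), Il18rap (-0.041), Il1rl1 (-0.20), Il9 (-0.0085), Irf1 (-1.30), Klrg1 (-0.31), Ltb (-0.045), Lum (-0.99), Mki67 (-1.84), Nmur1 (-0.68), Ramp3 (-0.035), Rora (-0.36), Sit1 (-0.44), Srgn (-0.86), Tnfaip3 (-0.061), Tnfrsf18 (-0.13), Tnfsf11 (-0.74), Vim (-1.81) and Zap70 (-0.086). Another 11 named genes, Aldoa among them (0.043, adjusted p = 0.672 in edgeR's quasi-likelihood test), stayed positive but lost their call under it. In the fit over all 8 libraries, which tests only genes of both tables, genes lower numbered 6 for stroma, 6 for epithelium, 3 for granulocytes and mast cells and 2 for endothelium, no red cell or platelet gene was called, and 7 cytokine and effector genes were higher. With the stricter filter, genes lower numbered 4 for natural killer cells and ILC1s, 3 for dendritic cells, 5 for granulocytes and mast cells, 2 for endothelium, 6 for homing receptors and integrins and 0 for red cells and platelets, of which 1 was higher. With library totals only, 5 neuropeptide and lipid receptor genes were lower. Without either alone library Rxrg lost its call, leaving 1 reference gene lower. Counts of 0 to 2 genes in the higher column of the B cell, endothelial, epithelial, dendritic and costimulation lists and the lower column of the glycolysis list changed by 1 when a library was left out. Low read numbers limit the fold of genes with few co-cultured reads, such as Lox and Col1a1. The other-lineage transcripts stood in both alone libraries, so no alternative removes them.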
